A study of Mus musculus with 6 samples.

Results

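The collagen chain genes were described in the gastric mucosa of wild-type C57BL/6J mice and of mice of that strain that lack A4gnt, a glycosyltransferase that caps the O-glycans of the mucin of gastric glands. The mucosa was stripped from the muscle layer of the glandular stomach, and RNA from 1 mouse per genotype and age, at 5, 10 and 50 weeks, was hybridised to a one-colour array each, which gives 3 wild-type and 3 A4gnt-null arrays. The labels give neither the part of A4gnt that was removed nor any other allele, agent, sex or litter. Members were all probes whose gene name on the array is Col, a number, the letter a and a number. They covered 40 genes with 59 probes among 31876 genes and transcripts on the array, and 28 genes were kept because at least 1 array was called well above background by the scanner software. The 28 were 8 of 11 fibrillar chains, 6 of 6 chains of the basement membrane collagen type IV and 14 of 23 other chains.

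Collagens are trimers of chains wound into a triple helix, and each chain has a gene of its own. The fibrillar types build the banded fibres of connective tissue, the type IV chains form the sheet on which epithelia, vessels and muscle cells rest, and further types coat fibrils, link them to that sheet or span cell membranes. In the stomach the fibrillar genes are used mainly by the stromal cells that lie between and beneath the glands. The epithelium sits on the sheet that type IV collagen forms.

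Signals are given as a percent of the 75th percentile of all probes on the same array, which was 235.6 to 369.9 intensity units. Differences are log2 values, null minus wild type of the same age, and their mean over the 3 ages is given with its SE from a limma fit with age as a term. A probe's brightness depends on its own binding, so levels were compared only within a gene. In wild type the A4gnt probe read 165 to 325 units, well above background in 3 of 3 mice, and in the null mice it read 2.11 to 2.94 units, above background in 0 of 3. All wild-type arrays lay on 1 slide and all null arrays on another, so that slide and genotype cannot be told apart. At a single age 1 mouse stands against 1 mouse, with no replicate check, and p-values over the 3 ages rest on 3 mice per genotype. In a bulk sample, fewer cells of a type and less RNA per cell cannot be told apart.

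Most of the collagens measured on every array gave higher signals in the null mucosa, Col18a1 and the fibrillar chains among them, while Col7a1 and Col20a1 gave lower ones. Of the 16 collagens above background on all 6 arrays, 9 were higher in the null mouse at all 3 ages, against 29.4% of 16012 genes measured on all 6 arrays. Lower at all 3 ages were 2, against 23.5% of those genes, and 5 differed in direction between ages. The median difference of the 16 was 0.60, beside 0.009 over all genes measured on 6 arrays. Scaling each array to its median in place of its 75th percentile shifted the median of all tested genes to 0.134 and the split of all genes measured on 6 arrays from 4710 higher and 3763 lower to 6507 and 2172, while the collagens then stood at 10 higher and 2 lower. Under normexp background correction the collagens stood at 7 higher and 3 lower, and all such genes at 4413 and 3649. In 5 of the 16 every null array lay above every wild-type array (14.5% of all such genes), and in 0 every null array lay below (9.81%). No gene on the array passed an adjusted p of 0.05 for genotype in limma with Benjamini-Hochberg adjustment over 17923 genes (0% in either direction), and so 0 of the 21 tested collagens did. At an unadjusted p under 0.05, 9 of the 21 were higher (12.7% of all genes tested) and 3 were lower (11.3%). None of the differences given here for a collagen passed this test. With normexp background correction 1 collagen passed, Col18a1, at 2.20 with an adjusted p of 0.0393 in limma. Under that correction 198 of all 17923 genes passed.

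**Figure D1:**
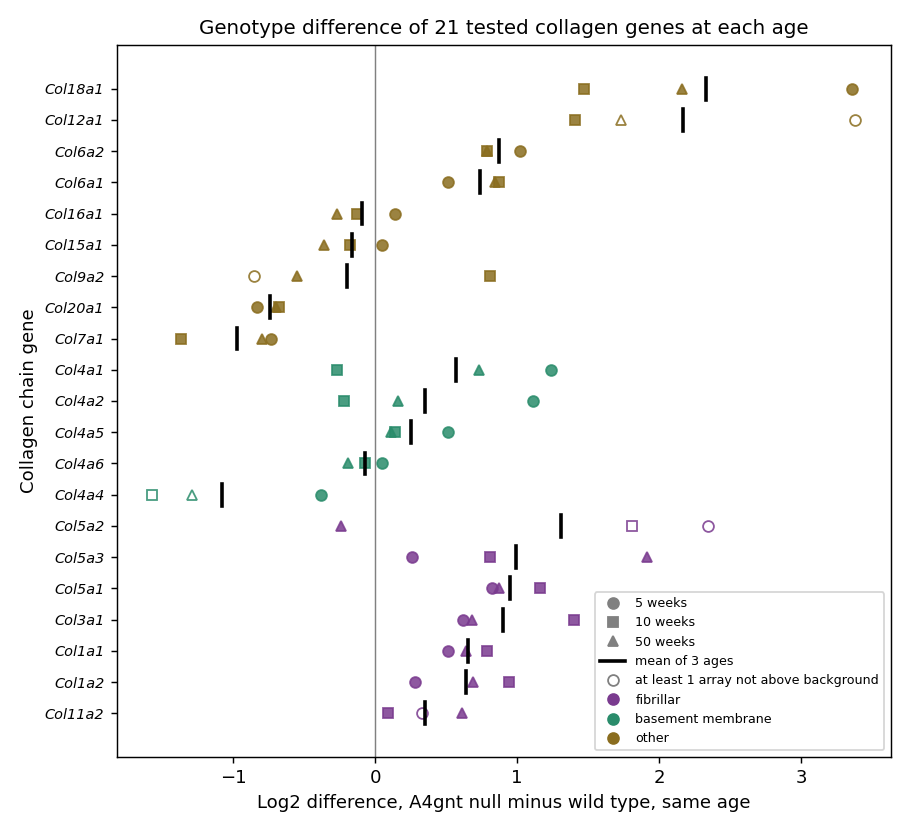
Log2 differences, A4gnt null minus wild type, of the 21 tested collagen genes at 5 weeks (circles), 10 weeks (squares) and 50 weeks (triangles), with the mean of the 3 ages as a bar; open symbols have at least 1 array not above background. The 9 genes measured on all arrays and higher in the null mouse at 3 ages lie wholly to the right of 0, Col7a1 and Col20a1 wholly to the left, and the symbols of Col4a1 and Col4a2 fall on both sides.

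The 5 fibrillar chains that were measured on all 6 arrays were Col1a1, Col1a2, Col3a1, Col5a1 and Col5a3. All were higher in the null mouse at each age (29.4% of all genes so measured), with a median difference of 0.90. In 4 of the 5 the groups did not overlap, with every null array above (14.5% of all genes measured on 6 arrays). The median of the 5 was 0.51 at 5 weeks, 0.94 at 10 weeks and 0.69 at 50 weeks.

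Type I collagen, the main collagen of interstitial fibres, is built from the chains of Col1a1 and Col1a2. Col1a1 gave 192, 177 and 141% in the wild-type mice of 5, 10 and 50 weeks and 273, 307 and 221% in the null mice. The lowest null value, at 50 weeks, lay above the highest wild-type value, at 5 weeks, and the mean difference was 0.65 ± 0.12 (SE, 3 arrays per genotype; limma, Benjamini-Hochberg adjusted p = 0.138). Col1a2 gave 513, 485 and 409% in wild type and 624, 933 and 659% in the null mice, again without overlap. Its difference was smallest at 5 weeks, 0.28, and was 0.94 at 10 and 0.69 at 50 weeks, with a mean of 0.64 ± 0.17 (limma, adjusted p = 0.168). The 2 chains thus had the same mean difference within their SE. The Col1a2 probe lies at chr6:4490619-4490678 and the Col1a1 probe at chr11:94813115-94813174 of mm9, the build for which the array was designed.

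Since type I is the main collagen of the interstitial fibres, the start of Col1a2 is shown, with the CCAAT box (CCAAT, or ATTGG on the other strand) in capitals. The window holds the 300 bases around a RefSeq start, most of them before it, at chr6:4505368-4505667 of GRCm38.p6, plus strand, with 2 matches.
Col1a2: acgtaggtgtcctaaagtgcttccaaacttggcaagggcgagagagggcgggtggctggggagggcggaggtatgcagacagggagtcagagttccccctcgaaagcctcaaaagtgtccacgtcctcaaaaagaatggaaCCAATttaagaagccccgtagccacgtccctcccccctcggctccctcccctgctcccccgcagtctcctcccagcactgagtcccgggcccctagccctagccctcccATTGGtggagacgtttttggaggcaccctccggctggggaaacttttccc
CCAAT or ATTGG occurred in 10 of the 25 windows of kept collagens, or 40%, beside 37.4% of all 32851 windows in the same table. GGGCGG or CCGCCC, searched on both strands likewise, occurred in 16 of the 25, or 64%, beside 35.7% of all windows. A match describes the letters only. The 25 windows belong to 22 of the 28 kept genes. They are not all independent, since those of Col4a1 and Col4a2 overlap and a GGGCGG match lies in the bases they share.

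Col3a1 encodes type III collagen, which forms the fine reticular fibres of soft organs. Its signal was 274, 193 and 195% in wild type and 421, 510 and 314% in the null mice. Every null array exceeded every wild-type array, and the difference was widest at 10 weeks, at 1.4 beside 0.62 at 5 and 0.68 at 50 weeks. The mean was 0.90 ± 0.21 (limma, Benjamini-Hochberg adjusted p = 0.152).

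Type V collagen joins type I in mixed fibrils and limits their width, and its chains come from Col5a1, Col5a2 and Col5a3. Col5a1 gave 11.8, 20.7 and 17.9% in wild type and 20.9, 46.1 and 32.7% in the null mice. The null mouse of 5 weeks barely exceeded the wild-type mouse of 10 weeks, and at the same age each null value was higher, by 0.82, 1.16 and 0.87. The mean of 0.95 ± 0.13 had the smallest SE relative to its size among the fibrillar chains (limma, Benjamini-Hochberg adjusted p = 0.121).

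Col5a3 gave 9.50, 16.1 and 7.07% in wild type and 11.4, 28.3 and 26.5% in the null mice. Here the groups overlapped, since the null mouse of 5 weeks lay below the wild-type mouse of 10 weeks. Its difference was 0.26 at 5 weeks, 0.81 at 10 weeks and 1.91 at 50 weeks, with a mean of 0.99 ± 0.35 that became 0.54 without the 50-week pair (limma, adjusted p = 0.203 with all ages). Of the 5 fibrillar chains measured throughout, it was the one whose difference was widest at 50 weeks.

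Col5a2 gave 1.91, 2.41 and 5.43% in wild type and 9.71, 8.46 and 4.61% in the null mice. In wild type the 5-week and 10-week values were not well above background, so the null mouse stood above wild type by 2.05-fold or more at 5 weeks and by 2.66-fold or more at 10 weeks. These bounds divide the measured signal by the higher of the dim signal and the lowest signal called above background on the dim array. At 50 weeks both mice were measured and the difference was -0.24. The change of the difference with each doubling of age was -0.80 ± 0.10 (limma, unadjusted p = 0.00104, Benjamini-Hochberg adjusted p = 1), the only collagen with an unadjusted p under 0.05 in that test, and the value depends on the dim wild-type signals of 5 and 10 weeks. Genes with such a p made up 1.37% of all genes in that direction and 1.46% in the other, and 0 genes passed after adjustment. The mean over ages, 1.31 ± 0.56, was 0.79 without the 5-week pair and was 2.08 without the 50-week pair.

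**Figure D2:**
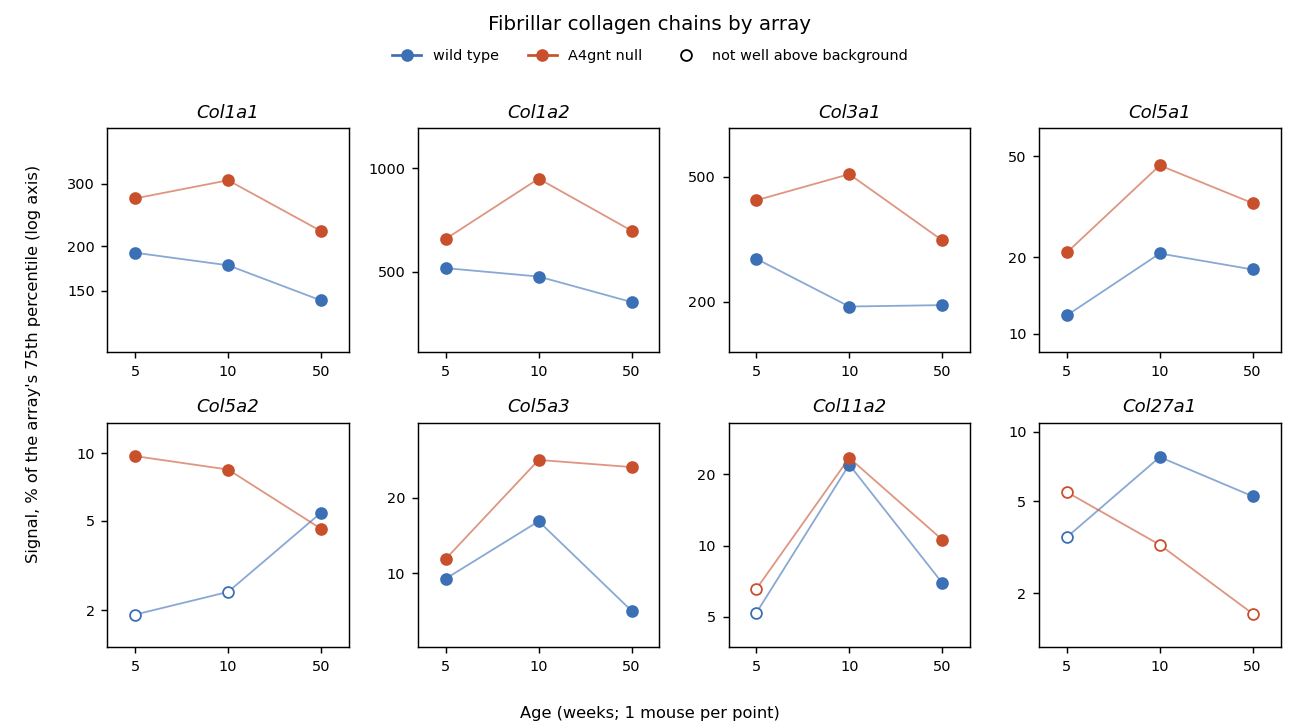
Signal of the 8 kept fibrillar chains as a percent of the array's 75th percentile (log axis, a scale of its own per gene) against age in weeks, wild type in blue and A4gnt null in red, 1 mouse per point; lines join different mice and open symbols are not well above background. The red points of Col1a1, Col1a2, Col3a1 and Col5a1 all lie above the blue ones, and the colours cross between 10 and 50 weeks in Col5a2.

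Col11a2, a chain of the cartilage collagen type XI, was above background on 4 arrays, at 10 and 50 weeks in both genotypes. It gave 5.19, 22 and 6.96% in wild type and 6.55, 23.5 and 10.6% in the null mice. In both genotypes the 10-week mouse was highest and the 5-week mouse, not above background, lowest, and the genotypes overlapped. Its mean genotype difference was 0.35 ± 0.15 (limma, Benjamini-Hochberg adjusted p = 0.255), and it was 0.21 without the 50-week pair and 0.05 with normexp background correction. Col27a1, a fibrillar chain best known from cartilage, went the other way: it was above background only in the wild-type mice of 10 and 50 weeks, at 7.78 and 5.26%. The null arrays of those ages, at 3.24 and 1.63%, were dim, so at 10 weeks wild type was higher by at least 2-fold, and at 50 weeks by at least 1.93-fold. Col2a1, Col11a1 and Col24a1 were above background on no array.

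The type IV chains of the basement membrane showed no common direction. Of the 4 measured on all 6 arrays 1, Col4a5, was higher in the null mouse at all 3 ages (29.4% of all genes measured on 6 arrays). Lower at all 3 ages were 0 (23.5%), and 3 were mixed. So few genes do not tell these counts from those shares. Their median difference was 0.30. By age that median was 0.81 at 5 weeks, -0.15 at 10 weeks and 0.13 at 50 weeks. In 0 of the 4 did the groups separate (every null array above in 14.5% of all such genes, below in 9.81%).

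Col4a1 and Col4a2 encode the chains of the type IV network found under most epithelia and vessels, and the genes stand head to head. Their RefSeq gene models on chromosome 8 start 84 bases apart, and the windows of 300 bases around a start of each gene share 78 bases. The windows are shown because the signals of these neighbours moved together over the arrays. Capitals mark the shared bases, which read as reverse complements of each other since Col4a1 (chr8:11312777-11313076, minus strand) and Col4a2 (chr8:11312555-11312854, plus strand; GRCm38.p6) run in opposite directions.
Col4a1: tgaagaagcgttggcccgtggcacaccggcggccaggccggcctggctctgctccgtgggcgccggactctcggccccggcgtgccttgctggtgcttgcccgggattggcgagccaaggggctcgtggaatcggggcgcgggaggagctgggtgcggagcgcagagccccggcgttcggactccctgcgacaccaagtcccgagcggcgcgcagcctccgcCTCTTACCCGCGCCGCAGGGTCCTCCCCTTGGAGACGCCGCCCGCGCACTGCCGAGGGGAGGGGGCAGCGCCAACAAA
Col4a2: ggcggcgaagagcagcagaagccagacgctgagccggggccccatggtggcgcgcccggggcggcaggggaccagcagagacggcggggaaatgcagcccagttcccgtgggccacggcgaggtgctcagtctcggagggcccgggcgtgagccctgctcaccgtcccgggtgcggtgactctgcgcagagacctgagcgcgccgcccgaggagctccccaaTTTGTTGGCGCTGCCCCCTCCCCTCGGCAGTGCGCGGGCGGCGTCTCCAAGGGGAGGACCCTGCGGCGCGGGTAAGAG
Col4a1 gave 38.8, 90.6 and 20.4% in wild type and 91.6, 75.2 and 34.0% in the null mice. Col4a2 gave 32.3, 95.0 and 28.9% in wild type and 70.0, 81.6 and 32.3% in the null mice. For both genes the wild-type mouse of 10 weeks and the null mice of 5 and 10 weeks were high and the other 3 arrays low, and the genotypes overlapped. At 5 weeks the null mouse was 2.36-fold higher for Col4a1 and 2.16-fold higher for Col4a2, whereas at 10 weeks it was lower, by -0.27 and -0.22. At 50 weeks the differences were 0.73 and 0.16. The mean differences were 0.57 ± 0.33 for Col4a1 (limma, Benjamini-Hochberg adjusted p = 0.346) and 0.35 ± 0.30 for Col4a2 (adjusted p = 0.505). Without the 5-week pair they became 0.23 and -0.03, and without the 10-week pair 0.99 and 0.64.

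Col4a3, Col4a4 and Col4a5 encode the chains of the network that is typical of the kidney filter. Col4a4 gave 13.8, 15.4 and 8.35% in wild type and 10.6, 5.2 and 3.41% in the null mice, and the null arrays of 10 and 50 weeks were not above background. Wild type was 2.96-fold above the dim null signal at 10 weeks and 2.45-fold at 50 weeks. Those dim signals, 15.6 and 12.6 units, exceeded the lowest signals called above background on their arrays, so the ratios are not bounds. At 5 weeks the difference was -0.38, with the null value inside the wild-type range. The mean was -1.08 ± 0.27 (limma, Benjamini-Hochberg adjusted p = 0.162), and a further Col4a4 probe that was above background on 3 arrays differed by -0.56. With the gene's probes averaged the difference was -0.48. Col4a3 was above background only in the wild-type mouse of 10 weeks, at 5.77% against a dim 0.884% in the null mouse, which makes wild type at least 1.49-fold higher there. Both of these neighbouring genes were therefore measured mainly in wild type.

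Col4a5 gave 18.7, 16.5 and 17.9% in wild type and 26.7, 18.2 and 19.3% in the null mice. Only the null mouse of 5 weeks stood clear, at a difference of 0.51, and the mean was 0.25 ± 0.14 (limma, Benjamini-Hochberg adjusted p = 0.333). Without the 5-week pair it was 0.12, and with normexp 0.10. Col4a6, which pairs with Col4a5 in the basement membrane of smooth muscle and some epithelia, gave 15.4, 14 and 16.2% in wild type and 15.9, 13.3 and 14.2% in the null mice. The genotypes overlapped and the mean difference was -0.07 ± 0.12 (limma, adjusted p = 0.742). Its direction rests on the probe and the scaling: a second probe, above background on 6 arrays, differed by 0.31, 0.87 and 0.45 at the 3 ages, and the mean of the gene's probes by 0.24.

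**Figure D3:**
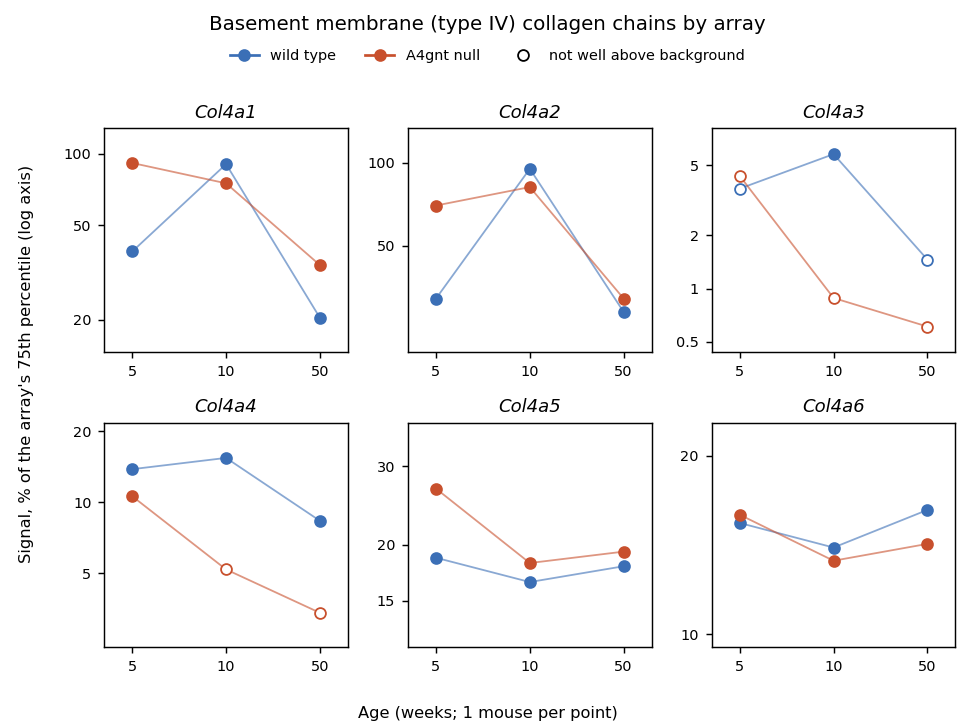
Signal of the 6 type IV chains as a percent of the array's 75th percentile (log axis, a scale of its own per gene) against age in weeks, wild type in blue and A4gnt null in red, 1 mouse per point; lines join different mice and open symbols are not well above background. Col4a1 and Col4a2 share a course in each genotype, with a 10-week maximum in wild type, and the null points of Col4a4 at 10 and 50 weeks are open.

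Among the other chains Col18a1 showed the widest difference of any collagen measured on all 6 arrays. It encodes the core protein of type XVIII collagen, a heparan sulfate proteoglycan of basement membranes whose end fragment is endostatin. Its signal was 80.1, 454 and 172% in wild type and 825, 1260 and 767% in the null mice. The null mice lay above all wild-type mice, and the gap was 10.3-fold at 5 weeks, 2.77-fold at 10 weeks and 4.47-fold at 50 weeks. The spread among the wild-type mice (SD 1.25 on the log2 scale) was wider than among the null mice (SD 0.39). The mean difference was 2.33 ± 0.40 (limma, unadjusted p = 0.00388, Benjamini-Hochberg adjusted p = 0.137). A second probe of the gene gave 61.6, 312 and 145% in wild type and 518, 831 and 562% in the null mice, a mean difference of 2.15.

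Col18a1 has 2 RefSeq starts on chromosome 10, both on the minus strand, which are shown as the windows of the collagen with the widest difference. Capitals mark CCAAT or ATTGG, with 1 match in the window at chr10:77166481-77166780 and 0 in that at chr10:77113656-77113955 (GRCm38.p6).
Col18a1 upstream start: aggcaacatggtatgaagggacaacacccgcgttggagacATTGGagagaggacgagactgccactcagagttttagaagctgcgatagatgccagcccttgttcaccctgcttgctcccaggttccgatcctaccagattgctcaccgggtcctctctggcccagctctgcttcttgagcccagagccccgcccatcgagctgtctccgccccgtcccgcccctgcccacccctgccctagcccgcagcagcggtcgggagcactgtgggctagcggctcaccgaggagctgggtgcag
Col18a1 downstream start: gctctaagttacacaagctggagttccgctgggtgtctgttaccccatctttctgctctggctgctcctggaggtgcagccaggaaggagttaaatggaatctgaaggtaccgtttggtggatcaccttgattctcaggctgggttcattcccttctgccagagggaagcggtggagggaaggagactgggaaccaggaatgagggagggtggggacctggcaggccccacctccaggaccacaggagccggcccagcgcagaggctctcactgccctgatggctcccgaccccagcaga
The probe used lies at chr10:76514926-76514985 of mm9, and the arrays do not tell the starts apart. On the same chromosome Col6a1 lies 326 kb from Col18a1, and Col6a1 and Col6a2 are 85.2 kb apart (GRCm38).

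Col6a1 and Col6a2 encode chains of type VI collagen, which forms beaded filaments around cells. Col6a1 gave 133, 222 and 151% in wild type and 189, 405 and 271% in the null mice. Col6a2 gave 16.6, 41.8 and 24% in wild type and 33.6, 72.3 and 41.5% in the null mice. At each age the null mouse was higher for both genes, although the wild-type mouse of 10 weeks exceeded the null mouse of 5 weeks and the groups overlapped. The differences of Col6a1 were 0.51, 0.87 and 0.84, with a mean of 0.74 ± 0.14 (limma, Benjamini-Hochberg adjusted p = 0.138). Those of Col6a2 were 1.02, 0.79 and 0.79, with a mean of 0.87 ± 0.12 (limma, adjusted p = 0.121).

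The next group, the fibril-associated chains, sit on the surface of collagen fibrils and diverged among themselves. Col12a1, which bridges fibrils in tissues under tension, gave 0.967, 5.33 and 2.74% in wild type and 10.1, 14.2 and 9.05% in the null mice. All null arrays lay above all wild-type arrays, but in wild type the 5-week and 50-week values were not well above background. At 10 weeks, with both mice measured, the null mouse was 2.66-fold higher. Its excess over the dim wild-type mice was at least 2.13-fold at 5 and 2.25-fold at 50 weeks, and the fitted mean of 2.17 ± 0.44 (limma, Benjamini-Hochberg adjusted p = 0.144) depends on the dim values.

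Col20a1, another fibril-associated chain, was lower in the null mouse at every age. It gave 16, 11.7 and 8.24% in wild type and 8.96, 7.29 and 5.06% in the null mice. The groups overlapped, since signals were lower at older ages in both genotypes and the null mouse of 5 weeks exceeded the wild-type mouse of 50 weeks. The differences of -0.83, -0.68 and -0.70 had a mean of -0.74 ± 0.11 (limma, Benjamini-Hochberg adjusted p = 0.129). Col16a1 gave 91, 155 and 89.8% in wild type and 100, 142 and 74.4% in the null mice, with full overlap and a mean of -0.09 ± 0.14 (limma, adjusted p = 0.721). Another Col16a1 probe, above background on 4 arrays, differed by 0.47 on average. Col9a2, a chain of type IX collagen, was above background on 5 arrays and dim in the null mouse of 5 weeks. It differed in direction between ages, with a mean of -0.20 ± 0.37 (limma, adjusted p = 0.769) that includes the dim value.

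Col7a1 encodes the collagen of the anchoring fibrils that fasten stratified epithelium to its stroma. It gave 106, 152 and 61.0% in wild type and 64.1, 58.8 and 35.1% in the null mice. The null mouse was lower at each age, by -0.73, -1.37 and -0.80, yet the wild-type mouse of 50 weeks lay below the null mouse of 5 weeks. The mean was -0.97 ± 0.18 (limma, Benjamini-Hochberg adjusted p = 0.138). Col7a1 lies on chromosome 9 at 9.33 Mb from A4gnt, and Col12a1 on that chromosome at 19.9 Mb from it (GRCm38). Col15a1, which is related to Col18a1, differed by 0.05, -0.18 and -0.36 at the 3 ages, with a mean of -0.16 ± 0.14 (limma, adjusted p = 0.497). Its signals, 11.9 to 18.2 units, lay close to the lowest signals called above background, 10.1 to 11.6 units. With the gene's probes averaged the difference was 0.10.

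**Figure D4:**
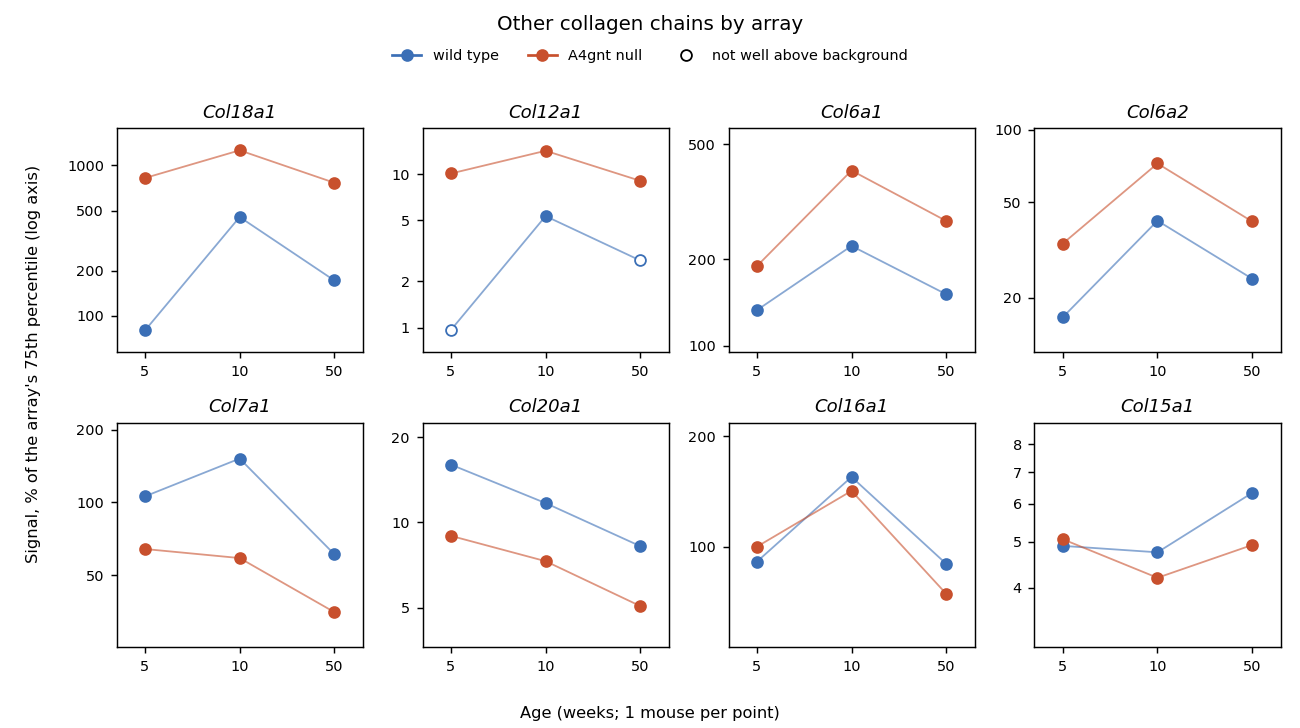
Signal of 8 other collagen chains as a percent of the array's 75th percentile (log axis, a scale of its own per gene) against age in weeks, wild type in blue and A4gnt null in red, 1 mouse per point; lines join different mice and open symbols are not well above background. Col18a1 and Col12a1 show no overlap between the colours, Col7a1 and Col20a1 run lower in red at each age, and Col16a1 and Col15a1 intermix.

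The remaining kept chains were near the limit of detection. Col17a1, a transmembrane collagen of hemidesmosomes, and Col22a1, a fibril-associated chain, were above background only in the 50-week mouse of each genotype. Col23a1, a transmembrane collagen, was so in the wild-type mouse of 10 weeks and the null mouse of 50 weeks. Col9a1 and Col14a1 were above background only in the null mouse of 50 weeks, at 3.21 and 3.88%, and the other null mice had 3.39 to 3.44% and 3.54 to 4.49%. That array had the highest 75th percentile, 369.9 units, and the lowest signal called above background, 10.1 units. Above background on no array were Col6a6, Col8a1, Col8a2, Col9a3, Col10a1, Col13a1, Col19a1, Col25a1 and Col28a1.

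Several differences were smaller with normexp background correction, which adds an offset of 50 units before the logarithm and so compresses dim probes. Under it the mean was 0.42 for Col5a1, 0.36 for Col5a3, 0.20 for Col5a2, 0.47 for Col6a2, 0.35 for Col12a1, -0.21 for Col20a1, -0.27 for Col4a4 and 0.30 for Col4a1. The brighter Col1a1, Col1a2, Col3a1, Col6a1 and Col18a1 had 0.62, 0.62, 0.83, 0.66 and 2.20.

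Counted at a single age among collagens above background in both mice, at least 2-fold higher in the null mouse were 4 of 17 at 5 weeks (3.73% of all genes so measured), namely Col4a1, Col4a2, Col6a2 and Col18a1. At 10 weeks the count was 4 of 19 (4.64%), namely Col3a1, Col5a1, Col12a1 and Col18a1. At 50 weeks it was 2 of 21 (2.08%), Col5a3 and Col18a1. At least 2-fold lower were 0 at 5 weeks (4.62%), Col7a1 alone at 10 weeks (4.91%) and 0 at 50 weeks (4.19%). With normexp the higher counts were 1, 2 and 1, and with scaling to the median the count at 50 weeks was 4. The shares of all genes at these settings were not computed. Scaling to the median also shifted the median genotype difference of all tested genes to 0.134.

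By age, the 10-week mouse was the highest of its genotype for 9 of 16 collagens in wild type (25.6% of all genes measured on 6 arrays) and for 10 of 16 in the null mice (22.7%). In the null mice these included all 5 fibrillar chains, of which 2, Col5a1 and Col5a3, also had their wild-type maximum at 10 weeks. The comparison of ages over both genotypes has 2 mice per age. Between 5 and 10 weeks 7 of the 21 tested collagens were higher at an unadjusted p under 0.05 (5.54% of all genes tested) and 0 lower (6.29%). Col6a2 differed by 1.22 ± 0.15 and Col11a2 by 1.96 ± 0.18, each with a Benjamini-Hochberg adjusted p of 0.394 in limma, and the Col11a2 value depends on the signals of 5 weeks, which were not above background in either mouse. Between 10 and 50 weeks 0 were higher (2.24%) and 8 lower (4.58%), with Col4a1 at -1.65 ± 0.40, Col4a2 at -1.53 ± 0.36 and Col7a1 at -1.03 ± 0.22, all at an adjusted p of 0.71 in limma. Between 5 and 50 weeks 3 were higher (8.11%) and 4 lower (10.9%), among them Col20a1 at -0.89 ± 0.14 (limma, adjusted p = 0.218) and Col4a1 at -1.18 ± 0.40 (limma, adjusted p = 0.252). After adjustment 0 collagens passed in any age comparison, in which 2 genes of the array (0.0112%) were higher at 10 than at 5 weeks, 2 (0.0112%) higher at 50 than at 5 weeks and 0 otherwise.

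The genes that modify, cleave, crosslink and bind collagen were taken from 6 lists, and 0 of their tested members passed for genotype in limma. Of 16 tested genes of chain modification and folding in the endoplasmic reticulum, 4 were higher and 3 lower at an unadjusted p under 0.05 (12.7% and 11.3% of all genes tested, the background for each such count in these lists). Their median difference was 0.19. The widest were P3h3, of the prolyl 3-hydroxylase family, at 0.69 ± 0.16, P4ha2, a catalytic subunit of prolyl 4-hydroxylase, at -0.65 ± 0.14, Fkbp10, a folding chaperone of procollagen, at 0.59 ± 0.13, and Plod3, a lysyl hydroxylase, at 0.52 ± 0.25.

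On the crosslinking list 2 of 4 tested genes were higher (12.7% of all genes) and 0 lower (11.3%) at an unadjusted p under 0.05, with a median of 0.95. Loxl2, a lysyl oxidase-like enzyme, gave 25.6, 60.8 and 30.1% in wild type and 67.6, 113 and 87.6% in the null mice. Its null values all exceeded the wild-type ones, by a mean of 1.28 ± 0.18 (limma, Benjamini-Hochberg adjusted p = 0.121). Pxdn, the peroxidase that crosslinks type IV collagen, differed by 1 ± 0.18 (limma, adjusted p = 0.138). Lox differed by 0.90 ± 0.40 and Loxl1 by 0.16 ± 0.18.

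Among 9 tested genes of procollagen processing and secretion, 2 were higher (12.7% of all genes) and 1 lower (11.3%) at an unadjusted p under 0.05. The median was 0.20 over these 9 and -0.02 over the 7 measured on all arrays. Pcolce2 and Pcolce, enhancers of the enzyme that removes the end propeptide, differed by 1.76 ± 0.41 and 0.53 ± 0.17. Tll1, a protease of that step, differed by -1.12 ± 0.23, and Adamts14, which removes the other propeptide, by 0.67 ± 0.39. Among 9 tested collagen receptors 2 were higher and 1 lower at such a p, with a median of 0.05. Itga2, the collagen-binding integrin chain of epithelia and platelets, gave 7.81, 7.28 and 6.39% in wild type and 16.1, 20.3 and 23.1% in the null mice. These values did not overlap and differed by 1.46 ± 0.20 (limma, Benjamini-Hochberg adjusted p = 0.116). Its partner Itgb1 differed by 0.35 ± 0.12, Itga10 by -0.33 ± 0.44, and Lair1, an inhibitory collagen receptor of immune cells, by -0.71 ± 0.19.

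Of 14 tested laminins and other basement membrane proteins, 3 were higher (12.7% of all genes) and 1 lower (11.3%) at an unadjusted p under 0.05, and their median was 0.00. The laminin chains Lama1 and Lama3 differed by 1.27 ± 0.59 and 1.16 ± 0.30, the linker Nid1 by 0.76 ± 0.27 and the proteoglycan Agrn by -0.59 ± 0.12. Of 5 tested small leucine-rich proteoglycans, which coat fibrils, 0 were higher and 1 lower at such a p, with a median of -0.45. Bgn differed by -0.47 ± 0.15, Ogn by -0.53 ± 0.26, Podn by -0.45 ± 0.32, Dcn by 0.04 ± 0.26 and Lum by 0.46 ± 0.57, so that the list had no common direction.

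**Figure D5:**
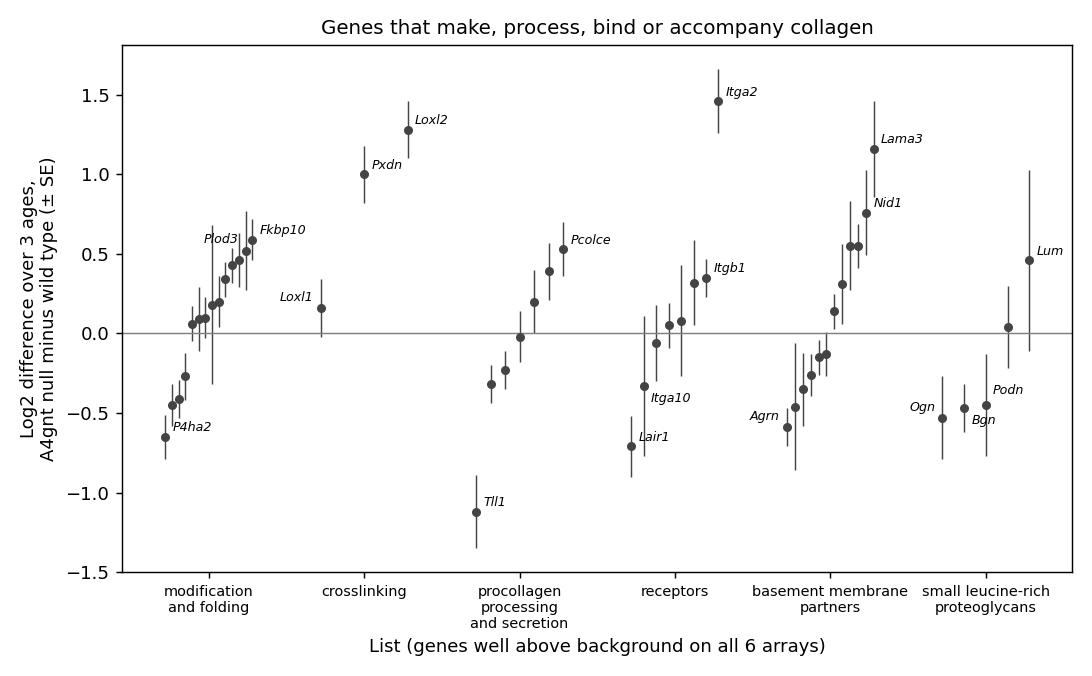
Mean log2 difference over the 3 ages, A4gnt null minus wild type, with its SE, of the genes of 6 collagen pathway lists that were measured on all 6 arrays; the named genes are those of widest difference in each list. Loxl2, Pxdn, Itga2 and Lama3 lie at or above 1, Tll1 lies at -1.12, and 3 of the 5 proteoglycans lie below 0.

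Markers of the cells that could carry these transcripts were measured on the same arrays, and their part in the collagen differences was not tested. Summed signals cover every marker of a list on the array, dim ones included, in multiples of the array's 75th percentile, and medians cover the tested markers. The brightest probes weigh most in such a sum. Of 8 fibroblast markers 6 were measured on all arrays and 7 were tested, with a median of 0.80. Of the 6, 3 were higher in the null mouse at all 3 ages (29.4% of all genes measured on 6 arrays), namely Pdgfra, Vim and S100a4. The others of the 6 were mixed. Thy1 was lower in the null mouse of 50 weeks, by -0.19, Mfap5 differed by -0.28 on average and Pi16 by 0.05. Dpt, above background on 5 arrays, was lower in the null mouse of 50 weeks, by -0.59. The summed fibroblast signal was 2.21 to 3.19 times in wild type and 4.23 to 5.94 times in the null mice. In it Vim gave 62.9 to 124% in wild type and 155 to 196% in the null mice. S100a4 gave 43.2 to 55.4% in wild type and 151 to 195% in the null mice. Vim and S100a4 made up most of the sum in the null mice. The values of Pdgfra, Thy1, Dpt, Mfap5 and Pi16 overlapped between the genotypes. Fap was above background on 1 wild-type array only. All 7 smooth muscle markers were detected, although the muscle layer had been stripped, with sums of 14.5, 48.3 and 76.2 times in the wild-type mice of 5, 10 and 50 weeks and 49.6, 66 and 21.2 times in the null mice. Their median difference ran from 2.03 at 5 weeks through 0.49 to -2.44 at 50 weeks, and Col4a1, Col4a2, Col4a5, Col6a2 and Col18a1 also had their widest null excess at 5 weeks. At 50 weeks these collagens differed by 0.73, 0.16, 0.11, 0.79 and 2.16. The fibrillar medians were 0.51, 0.94 and 0.69 at 5, 10 and 50 weeks. A link of either group to the muscle signal was not tested.

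Of 5 pericyte markers 4 were measured throughout, with a median of 0.67 over the 5 (0.27 over the 4) and sums of 0.608 to 1.67 times in wild type and 0.88 to 1.98 times in the null mice. The endothelial list had 1 of 6 genes measured throughout, Kdr, which made up nearly all of its sums of 21 to 28.5 and 15.5 to 29.4 times. Kdr differed by -0.30, Pecam1, Cdh5 and Tie1 by 0.15, 0.18 and 0.41, and Tek and Emcn were above background on no array. Among glial markers S100b was higher in the null mouse at all 3 ages and differed by 3.01 ± 0.35, with the wild-type mouse of 5 weeks not above background. Sox10 differed by -0.33, and Gfap was above background on no array.

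Squamous sums were 9.98 to 12.1 times in wild type and 8.06 to 9.39 times in the null mice, and the list was mixed. Trp63 made up most of each sum, at 605 to 823% in wild type and 526 to 599% in the null mice. Krt5 gave 7.58, 140 and 227% in wild type and 7.06, 6.90 and 10.1% in the null mice, so that the wild-type mice of 10 and 50 weeks stood apart, and Krt14 and Krt6a were above background on 2 wild-type arrays each and on no null array. Ivl, a protein of the cornified envelope, went the other way, with 1.59, 15.2 and 6.55% in wild type, above background on 2 arrays, and 67.6, 41 and 26.6% in the null mice, above background on 3. Col7a1 was lower in the null mouse also at 5 weeks, by -0.73. At that age Trp63 differed by -0.46, Krt5 by -0.10, Krt13 by 0.72 and Ivl by 5.41, the last over a dim wild-type signal. Krt14 and Krt6a differed by 0.2 and -1.66, with dim null signals. A link of Col7a1 to these markers was not tested.

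The gastric epithelial markers matched the labelled tissue, with 7 of 7 above background on all arrays and sums of 2800 to 3080 times in wild type and 2490 to 3200 times in the null mice. Within the list Atp4a, the proton pump of parietal cells, and Cblif, the intrinsic factor, were lower in the null mouse at all 3 ages, by a mean of -1.30 ± 0.33 and -0.97 ± 0.29. Epcam, an adhesion protein of epithelia, was higher at all 3, by 0.80 ± 0.14. Of the adipocyte markers 1 of 4, Fabp4, was measured throughout, and the sums were 12.9 to 29.8 and 11.9 to 32.1 times. Cfd was above background on 2 wild-type arrays, at 51.5 and 67.4%, and on no null array, and Adipoq on 1 wild-type array only. Markers of dividing cells summed to 8.86 to 36.6 times in wild type and 19.2 to 51.1 times in the null mice, with a median difference of 1.4.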

How the data were processed

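RNA of 6 mice was labelled with Cy3 and hybridised to Agilent arrays designed on mm9. Per the file headers, Agilent Feature Extraction 10.7.1.1 made each spot's fluorescence intensity and its background-subtracted processed signal. A deposited table of log2 values proved to be that signal's log2 plus 1 constant per array, to within 0.001 for 100% of probes, and the constant equals minus the log2 75th percentile to within 0.01. The table served as an alternative. Its columns have medians of -3.89 to -3.56, and no scale, centring or direction stays unknown.

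The processed signal was put on the log2 scale minus each array's 75th percentile. Each array lost 98 to 144 flagged spots and had 0 saturated ones, and 54.8 to 59.2% of spots were well above background, the lowest at 10.1 to 11.6 units. The number of arrays, 3 per genotype, limits the precision. Control probes were set aside, 30 of the other 39429 probes were dropped because of flags, and 26055 were named by accession through the RefSeq gene table and 13374 kept the array's name. Of the 40 collagen names 39 matched the accession's symbol. For several probes of a gene the one of highest mean signal was used (13 of the 40 collagens). Genes above background on at least 3 arrays, 17923 in all, entered a fit of genotype and age (as a factor) in limma 3.58.1 under R 4.3.3, and one of genotype by log2 age for the trend. The Benjamini-Hochberg adjustment ran over all 17923 genes, and 0.05 was the threshold. The fit was tested on simulated data.

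The age pairs the arrays: deviations from the genotype means of the 2 arrays of an age correlated at 0.31, 0.19 and 0.44 for 5, 10 and 50 weeks, so age stayed in the fit. Values of every array are given for members past the threshold, for the 4 of highest mean signal, the 3 of widest genotype difference and the 3 of widest difference between 50 and 5 weeks in each class, for members measured in 1 genotype, and also for Col6a2. Up to 4 genes of widest difference are named per pathway list. The members and lists were chosen with earlier results of these data known. Promoter windows come from RefSeq on GRCm38.p6 (32 of 40 members matched); probe coordinates are the array design's, and whether a probe lies in an exon or UTR was not analysed here. The alternatives tried were normexp background correction with an offset of 50, quantile normalization, scaling to the array's median, the deposited table, the mean of a gene's probes, other filters, a variance trend, no age term, and leaving out each age. A glial marker and the summed glial signal are not reported here.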

Additional observations from a re-analysis of the deposited data

How the results depend on the processing

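Over 12 alternatives, 115 recomputed counts stayed within 1.5 times the reported one and 19 did not, and of the differences of single collagens 237 kept direction and side of the threshold, 9 reversed and 1 passed. For genotype the reported count over all genes is 0 with limma; it was 1 with quantile normalization, 198 with normexp, 58 with a variance trend and 7 with no replicate block, that is, without pairing the arrays by age. With normexp 1 collagen passed, Col18a1; under the other alternatives, the fit without the block included, 0 did. At a single age, collagens at least 2-fold higher numbered 1, 2 and 1 at 5, 10 and 50 weeks with normexp, where 4, 4 and 2 are reported. With scaling to the median they numbered 4 at 50 weeks. At 10 weeks 2 were lower with a gene's probes averaged, where 1 is reported. The shares of all genes beside these single-age counts were not computed. Between 5 and 10 weeks the 2 genes called became 5 with normexp, and 0 with only genes above background on all 6 arrays, with no filter and without the 50-week arrays (range 0 when that age was left out). Between 5 and 50 weeks the 2 became 13 with normexp, 5 with a variance trend, and 0 with either filter and without the 10-week arrays. The reversals touched 5 collagens: Col4a6 was 0.02 with quantile normalization, 0.06 with scaling to the median and 0.24 with the mean of its probes; Col16a1 was 0.04, 0.42 with the mean of its probes and 0.01 without the 50-week pair; Col15a1 was 0.10 with the mean of its probes. With 1 age left out at a time, Col4a2 ranged from -0.03 to 0.64, Col9a2 from -0.70 to 0.13 and Col16a1 from -0.20 to 0.01, and the lowest Col4a2 and highest Col9a2 values came without the 5-week pair. Normexp adds its offset before the logarithm; the cause of the other changes was not tested. At some ages dim signals limit Col5a2, Col12a1, Col4a3, Col23a1 and Col27a1 to bounds on 1 side. For Col4a4 and Col9a2 the ratios at such ages are to a dim signal and are not bounds.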

Other observations

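Collagen chains that carry another name on the array were not among the genes described. The array's Dvwa is Col6a4, a type VI chain, by accession, and 1 of its 2 probes was well above background on 5 arrays, 2 wild-type and 3 null. That probe gave 4.44, 4.96 and 5.82% of the 75th percentile in the wild-type mice of 5, 10 and 50 weeks and 6.12, 14.3 and 11% in the null mice. The null mice lay above all wild-type mice, by 0.46, 1.52 and 0.91 on the log2 scale, and the other Dvwa probe was above background on 0 arrays. The probes of Gm7455, which is Col6a5, and of Emid2, which is Col26a1, were above background on no array.

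S100b, listed as a glial marker, was not above background in the wild-type mouse of 5 weeks and gave 0.960, 5.78 and 12.6% in wild type and 12.5, 54.2 and 54.2% in the null mice. Another glial marker, Sox10, gave 20.4, 15.8 and 15.1% in wild type and 17.9, 13.5 and 10.1% in the null mice.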
